A study of Homo sapiens with 16 samples.

Results

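The DEAD-box and DEAH-box RNA helicase genes were taken as the protein-coding genes whose symbol is DDX or DHX followed by a number and, in some, a letter. This rule found 54 genes, 38 DDX and 16 DHX, among 20136 protein-coding genes of the GENCODE 44 annotation placed on GRCh37 (hg19). The rule used gene names alone and no measured value. DDX23, the gene that one of the cell lines is labelled as lacking, is 1 of the 54.

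The data are ChIP-seq peak lists, made by crosslinking protein to DNA, shearing the chromatin, pulling down one protein and sequencing the DNA that comes with it. All cells were HEK293T, an established human embryonic kidney line, and none was treated. The 3 lists came from wild-type cells, from POLK-/- cells and from DDX23-/- cells, and the labels give Polk as the antibody for each. There was 1 list per genotype, so the genotypes are set side by side with no test between them.

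Several points limit what a peak means here. POLK encodes DNA polymerase κ, a translesion polymerase, and the POLK-/- cells are labelled as lacking the protein that the antibody is named for. A peak in that list can therefore not be read as polymerase κ from the label alone, and the same holds for the other lists. The protocol in the labels names anti-FLAG beads, whereas no tag is given for these cells. How the knockout lines were made, and whether each is 1 clone, is not given in the sources used here. A peak list holds neither expression nor edits, so the loss of DDX23 or POLK could not be checked.

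DEAD-box and DEAH-box proteins use ATP to unwind short RNA duplexes or to strip proteins from RNA. They take part in nearly every step of RNA life, including splicing, ribosome assembly, export, translation and decay. DDX23, the human counterpart of yeast Prp28, belongs to the U5 snRNP and helps to exchange U1 for U6 at the 5′ splice site. Most helicases of these families are needed in every cell, and such genes commonly start in CpG-rich promoters.

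The stretches below show the DNA beside the summits of 8 helicase genes, chosen because they hold DDX23 itself, 3 genes with a peak in every list, 2 shared by the knockout lists, and 2 examples of the motifs counted further on. Each is the part of the peak nearest the summit that lies in no annotated exon, written 5′ to 3′ on the strand of the gene. Capitals mark exact matches on either strand to 6 motifs. The ETS family of factors was searched as CCGGAAG, and NRF1, a regulator of growth and mitochondrial genes, as GCATGCG. The zinc finger factor YY1 was searched as AAGATGG, and the SP1 family, bound at many housekeeping promoters, as GGGCGG. The motif of the trimeric factor NF-Y was searched as CCAAT, and the box at which the general transcription machinery can bind as TATAA. Where they meet, overlapping matches run together.
DDX23, chr12:49245960-49246055, minus strand: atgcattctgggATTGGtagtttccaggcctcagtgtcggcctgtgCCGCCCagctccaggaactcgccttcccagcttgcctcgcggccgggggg
DDX41, chr5:176943963-176944113, minus strand: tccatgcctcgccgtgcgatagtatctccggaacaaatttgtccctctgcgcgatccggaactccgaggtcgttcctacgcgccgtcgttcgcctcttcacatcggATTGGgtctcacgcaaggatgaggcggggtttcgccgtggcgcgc
DDX55, chr12:124086473-124086623, plus strand: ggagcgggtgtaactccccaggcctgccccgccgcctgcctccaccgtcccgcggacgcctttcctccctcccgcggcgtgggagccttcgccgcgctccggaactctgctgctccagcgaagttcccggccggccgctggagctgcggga
DDX19B, chr16:70323221-70323323, plus strand: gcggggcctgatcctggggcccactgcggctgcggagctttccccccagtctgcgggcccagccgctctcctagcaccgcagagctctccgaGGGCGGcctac
DHX34, chr19:47852421-47852571, plus strand: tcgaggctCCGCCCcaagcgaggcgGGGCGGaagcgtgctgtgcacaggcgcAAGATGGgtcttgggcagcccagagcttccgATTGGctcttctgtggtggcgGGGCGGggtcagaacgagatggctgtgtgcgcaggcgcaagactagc
DHX29, chr5:54603523-54603673, minus strand: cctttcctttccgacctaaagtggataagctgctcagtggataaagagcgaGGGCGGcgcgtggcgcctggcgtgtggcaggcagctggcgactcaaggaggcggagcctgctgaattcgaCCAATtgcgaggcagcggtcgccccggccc
DDX49, chr19:19030197-19030347, plus strand: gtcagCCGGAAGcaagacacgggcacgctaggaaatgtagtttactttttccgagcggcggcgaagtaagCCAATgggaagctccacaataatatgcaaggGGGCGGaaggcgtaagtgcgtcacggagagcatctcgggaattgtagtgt
DDX50, chr10:70660891-70661041, plus strand: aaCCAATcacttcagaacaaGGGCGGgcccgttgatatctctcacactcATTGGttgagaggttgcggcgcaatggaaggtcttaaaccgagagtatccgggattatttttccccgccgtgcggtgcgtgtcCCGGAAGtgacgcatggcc

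The lists differed in length and depth, which bears on every count. They held 1468 peaks for wild-type, 2451 for POLK-/- and 5945 for DDX23-/- cells. The fold and p of each peak gave back a whole number of fragments at its summit for 100% of peaks, with the p matched to a relative error under 0.0001. The genome-wide background so recovered was 0.573, 1.25 and 1.94 fragments in the lists of wild-type, POLK-/- and DDX23-/- cells. Relative depth was taken as this background divided by the width of the shortest peak, 228, 211 and 196 bases. By this measure the POLK-/- list was 2.36 times and the DDX23-/- list 3.94 times as deep as the wild-type list. The ratios of the backgrounds alone are smaller. The fewest fragments in any peak were 6, 10 and 14. The part of depth in the differences between lists was not tested, and a gene without a peak is one below the caller's threshold, not necessarily one without signal.

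A gene was given a peak when a summit lay within 1 kb of the 5′ end of its record or inside the gene. In the wild-type list 5 of the 54 helicase genes had a peak, which is 9.26% (95% exact Clopper-Pearson interval 3.08 to 20.3), against 6.98% of all protein-coding genes. In the POLK-/- list 13 had one, which is 24.1% (13.5 to 37.6) against 12.1% of all genes. In the DDX23-/- list 25 had one, which is 46.3% (32.6 to 60.4) against 29.5%. The share of all genes lay inside the helicase interval in the wild-type list and below it in the other 2. These intervals cover counting error only, and genes are not replicates of a condition. By family, 5, 10 and 20 of the 38 DDX genes had a peak in the lists of wild-type, POLK-/- and DDX23-/- cells, or 13.2% (4.41 to 28.1), 26.3% (13.4 to 43.1) and 52.6% (35.8 to 69.0). Of the 16 DHX genes 0, 3 and 5 had one, or 0.0% (upper bound 20.6), 18.8% (4.05 to 45.6) and 31.2% (11.0 to 58.7). The DHX share in the DDX23-/- list was thus close to that of all genes, the intervals of the families overlapped in every list, and the difference between them was not tested. In at least 1 list 27 of the 54 had a peak, which is 50% (36.1 to 63.9) against 30.3% of all genes.

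With peaks counted only within 1 kb of the start, where gene length does not enter, 4, 12 and 23 helicase genes had one in the lists of wild-type, POLK-/- and DDX23-/- cells. These are 7.41%, 22.2% and 42.6%, against 5.57%, 9.92% and 24.5% of all genes. A start peak in all 3 lists was found for 4 helicase genes (7.41%), against 4.23% of all genes. Measured from the start of the canonical transcript, the main transcript chosen by Ensembl, the counts were 4, 12 and 24, or 7.41%, 22.2% and 44.4%, against 5.83%, 10.4% and 26.0% of all genes. By that start 4 helicase genes (7.41%) had a peak in all 3 lists, against 4.41% of all genes. With the strongest 1468 peaks of each list, 5, 7 and 9 helicase genes had a peak, or 9.26%, 13.0% and 16.7%, against 6.98%, 6.98% and 6.96% of all genes. Cutting the lists to the same length levels the share of all genes by construction, so the smaller rise in the helicase count was largely set by the cut. The helicase share was above that of all genes in each list, and the difference was not tested.

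CpG-rich start windows were more frequent among these genes than among all genes. The window ran from 250 bases before to 50 after the start of the canonical transcript, and was called CpG-rich at a GC content of at least 50% and an observed over expected CpG ratio of at least 0.6. By this measure 49 of 54 helicase genes (90.7%) were CpG-rich, against 65.1% of all genes. Among CpG-rich genes the helicase shares with a peak were 8.16%, 24.5% and 49.0% in the lists of wild-type, POLK-/- and DDX23-/- cells, beside 9.63%, 16.7% and 40.6% of all genes. The gap to all genes was smaller there than over all 54 in the POLK-/- and DDX23-/- lists, and the wild-type share lay below that of all genes. These helicase shares leave out DDX19B, 1 of the 5 genes of the wild-type list. The wild-type share thus depends on where the DDX19B window is placed. The 5 helicase genes without a CpG-rich window were DDX19B, DDX60, DDX60L, DHX32 and DHX58, of which DDX19B alone had a peak. The DDX19B canonical start lies 9523 bp inside the gene record, so the window lies away from its peaks and does not describe them. The 300 bases around its summits held 28, 26 and 28 CpG sites in the same order of lists. Start peaks of all genes had medians of 29, 27 and 28. For DDX60L and DHX32 the canonical start lies 57294 and 15144 bp inside the record. Of all genes without a CpG-rich window, 2.05%, 3.48% and 8.91% had a peak in the same order of lists.

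**Figure D1:**
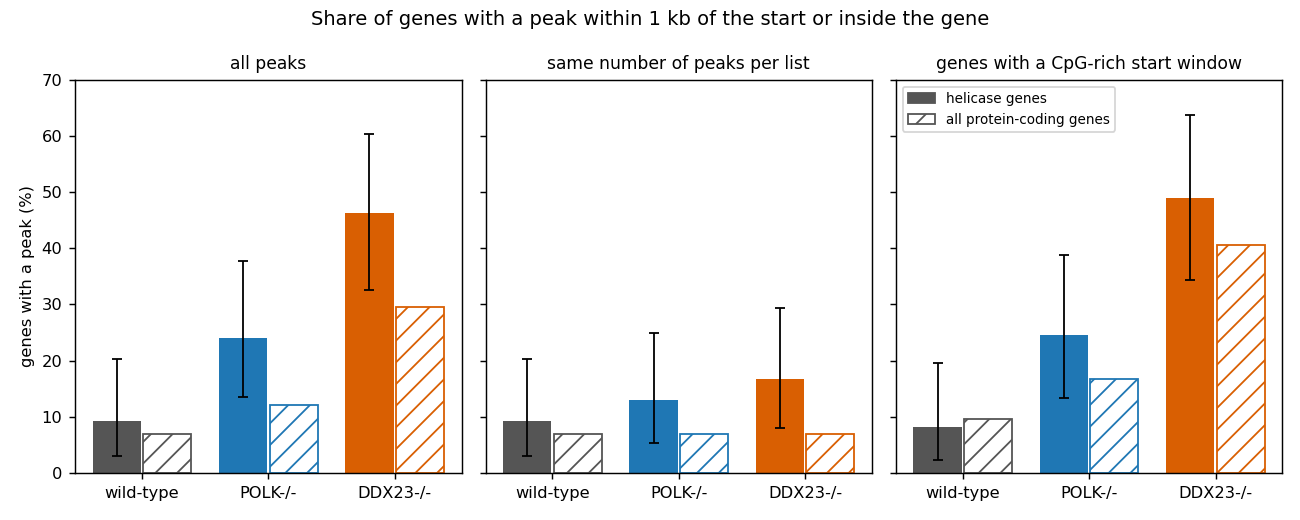
Percent of genes with a peak in each list (y axis), with filled columns and 95% exact binomial intervals for the helicase genes and hatched columns for all protein-coding genes. The panels show all peaks, the strongest 1468 peaks of each list and genes with a CpG-rich start window, and the helicase share in the DDX23-/- list is 46.3% with all peaks and 16.7% with equal numbers.

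Every helicase gene of the wild-type list was also in the POLK-/- and DDX23-/- lists: DDX19B, DDX41, DDX42, DDX55 and DDX56. Over all genes, 75.7% of those in the wild-type list were also in the POLK-/- list and 95.9% also in the DDX23-/- list. Of the 13 helicase genes in the POLK-/- list 11 (84.6%) were also in the DDX23-/- list, beside 95.2% over all genes. The 5 genes in all 3 lists are 9.26% of the 54, against 5.26% of all genes.

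A further 6 genes were shared by the POLK-/- and DDX23-/- lists alone, namely DDX1, DDX39A, DDX39B, DDX59, DHX29 and DHX34. They are 22.2% of the helicase genes with any peak, close to the 20.6% of all genes with any peak. DDX17 and DHX36 were in the POLK-/- list alone, which is 7.41% beside 1.82%, a share that rests on 2 genes. By p, DDX17 stood 96.2% of the way down that list, with a −log10 q of 2.61, and DHX36 stood 56.8% down, with 8.37. The other 14 were in the DDX23-/- list alone: DDX3X, DDX6, DDX19A, DDX20, DDX23, DDX24, DDX31, DDX46, DDX49, DDX50, DDX54, DHX8, DHX35 and DHX57. These are 51.9% of helicase genes with any peak, close to the 54.6% over all genes.

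Most of the 14 genes found in the DDX23-/- list alone had peaks in the weaker part of it. By p their strongest peaks stood 29.7% to 95.3% of the way down the list, with a median of 71.4%, and DDX6, DDX31 and DDX50 had more fragments than the list's median of 34. Their summits held 20 to 45 fragments with a median of 25.5, whereas the 11 genes shared with another list held 32 to 113 with a median of 56. None of the 14 was among the strongest 1468 peaks of that list, and 9 of the 11 were. Divided by the relative depth, the 14 corresponded to 5.07 to 11.4 fragments at wild-type depth, with a median of 6.46. For 3 of the 14 this was under 6, the fewest in any wild-type peak, and for the other 11 it was above. All lay below 14 fragments, the wild-type median and also the fewest in a wild-type helicase peak, that of DDX42. Scaling by the ratio of the backgrounds alone would give larger values, so the number under 6 depends on the conversion used. Whether any of these genes would be called at wild-type depth was not tested.

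By role, peaks were found among spliceosome, ribosome assembly and mRNA export, translation and decay genes, and none among 10 genes of 4 small groups. Of 10 spliceosome helicases, 2, 3 and 7 had a peak in the lists of wild-type, POLK-/- and DDX23-/- cells, to be read beside the 6.98%, 12.1% and 29.5% of all genes. Of 16 helicases of ribosome assembly and the nucleolus, 2, 2 and 7 had one, the count in the POLK-/- list being near the share of all genes. Of 8 helicases of mRNA export, translation and decay, 1, 4 and 7 had one, the exception being DDX3Y, the Y-linked copy of DDX3X. Whether these cells carry a Y chromosome was not checked, so the absence of a DDX3Y peak cannot be read. Of 6 helicases of transcription, RNP assembly and nucleic acid structure, 0, 3 and 2 had one. Of 4 less studied helicases 0, 1 and 2 had one, DDX59 and DHX57. The groups are small, and no difference between them was tested.

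**Figure D2:**
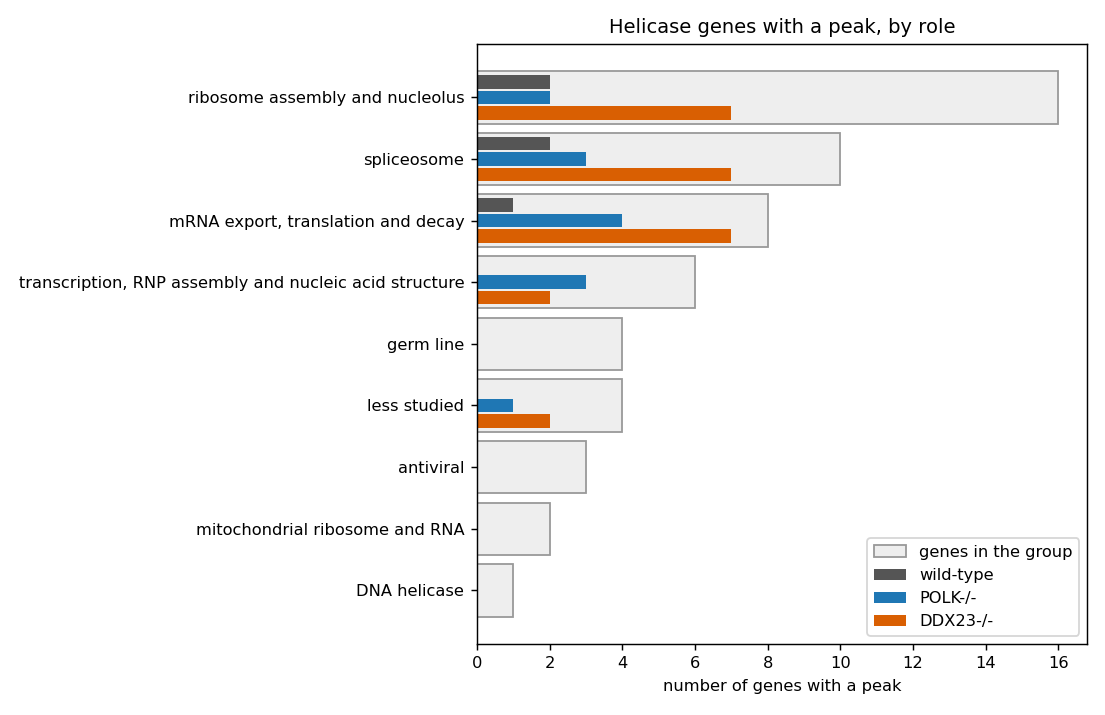
Number of helicase genes with a peak (x axis) by role group (y axis), with 1 coloured bar per list inside a pale bar for all genes of the group. In the DDX23-/- list 7 genes had a peak in each of the 3 largest groups, which hold 16, 10 and 8 genes, and germ line, antiviral, mitochondrial and DNA helicase genes had none in any list.

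DDX23 had a peak only in the list from DDX23-/- cells, at chr12:49245845-49246055. It was 211 bases wide, with a deposited fold over local background of 5.69 and a −log10 q of 6.04. The summit held 24 fragments (exact Poisson 95% interval 15.4 to 35.7), which is 8.08 times the local background (5.18 to 12.0). By p it stood 81.2% of the way down that list. The summit lay 649 bp inside the gene record and at −30 bp from the canonical start, in the stretch printed above. The peak thus lay at the promoter of the gene that these cells are labelled as lacking, and was one of the weaker peaks of the list.

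The spliceosome genes with the widest presence were DDX41 and DDX42. DDX41, found in late spliceosomes and also described as a DNA sensor, had 15 fragments in the wild-type, 28 in the POLK-/- and 60 in the DDX23-/- list. Over local background these are 4.95 (2.77 to 8.16), 4.12 (2.74 to 5.96) and 16.8 (12.8 to 21.7), with deposited folds of 3.97, 3.60 and 12.1 and −log10 q of 3.03, 3.47 and 30.0. Its summits lay at −65, 41 and 16 bp from the start, negative values being upstream, in peaks at chr5:176943886-176944168, chr5:176943803-176944123 and chr5:176943709-176944317. DDX41 was thus a weak peak in 2 lists and a strong one in the DDX23-/- list, where its counting interval did not overlap the others. The local background was 3.03, 6.79 and 3.57 fragments, beside relative list depths of 1, 2.36 and 3.94. The error of that background is not in the intervals, and whether the signal itself differed was not tested.

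DDX42, which associates with the U2 snRNP, had 14, 26 and 44 fragments in the same order of lists. Its enrichment was 10.1 (5.54 to 17.0), 10.1 (6.58 to 14.8) and 22.6 (16.5 to 30.4), with deposited folds of 6.30, 6.95 and 13.2 and −log10 q of 6.46, 9.65 and 25.8. The peaks lay at chr17:61851522-61851802, chr17:61851374-61851671 and chr17:61851390-61851854. All summits were 555 to 657 bp inside the gene record but between −12 and 90 bp from the canonical start. The wild-type and DDX23-/- intervals overlapped narrowly, and those of POLK-/- and DDX23-/- did not overlap. The local background was 1.38, 2.58 and 1.94 fragments, the last equal to the genome-wide background of the DDX23-/- list. Its error is not in the intervals.

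DDX55, DDX56 and DDX19B were the 3 helicase genes with the smallest p in every list. DDX55, a nucleolar helicase of large-subunit assembly, had 37, 52 and 113 fragments in wild-type, POLK-/- and DDX23-/-. This is an enrichment of 36.2 (25.5 to 49.9), 19.1 (14.3 to 25.1) and 18.6 (15.4 to 22.4), with deposited folds of 18.8, 13.1 and 15.1 and −log10 q of 40.1, 31.1 and 61.6. The summits fell within 26 bp of each other, 53, 79 and 61 bp inside the record, in peaks at chr12:124086356-124086895, chr12:124086269-124087098 and chr12:124086200-124086933. Unlike DDX41, it was highest over background in the wild-type list, whose counting interval lay just above that of POLK-/- and above that of DDX23-/-. The local background was 1.02, 2.72 and 6.06 fragments, and its error is not in the intervals.

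DDX56, another nucleolar helicase, had 24, 71 and 112 fragments. Its enrichment was 19.8 (12.7 to 29.5), 56.8 (44.4 to 71.7) and 31.4 (25.9 to 37.8), with deposited folds of 11.3, 27.7 and 22.3 and −log10 q of 19.2, 67.4 and 76.7. The POLK-/- value, 2.87 times the wild-type value, was the highest enrichment of any helicase peak, and its interval lay above the other 2, which overlapped. The local background was 1.21, 1.25 and 3.57 fragments, and its error is not in the intervals. In the POLK-/- list it equalled the genome-wide background of 1.25, whereas in wild-type and DDX23-/- it was above the 0.573 and 1.94 of those lists. The peaks, at chr7:44613189-44613701, chr7:44613078-44613839 and chr7:44613098-44613698, had summits over 1 kb inside the gene record but at −3, −29 and 1 bp from the canonical start. This gene accounts for the difference between the counts with and without peaks inside genes in the wild-type and POLK-/- lists.

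DDX19B, which releases mRNA from export factors at the nuclear pore, had 23, 49 and 107 fragments. Its enrichment was 34.7 (22.0 to 52.0), 26.3 (19.5 to 34.8) and 23.5 (19.3 to 28.4), with deposited folds of 14.4, 15.6 and 17.9 and −log10 q of 23.8, 34.3 and 65.0. The intervals of all 3 lists overlapped. The summits lay at −213, −189 and −200 bp from the record's start, in peaks at chr16:70323156-70323530, chr16:70322984-70323570 and chr16:70322969-70323579, and 233 to 257 bp inside AARS1, an alanyl-tRNA synthetase gene read the other way. The canonical DDX19B transcript starts 9523 bp inside the record, so these peaks lie at an upstream start close to that of AARS1. Its neighbour and close relative DDX19A had a peak only in the DDX23-/- list, with 20 fragments.

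Between lists, these enrichments moved in no common direction. Over the 5 genes in both lists, the POLK-/- over wild-type ratio of enrichment had a median of 0.833, beside 0.857 over 1039 genes. The DDX23-/- over wild-type ratio had a median of 1.59 over the 5, from 0.515 to 3.40, beside 1.15 over 1328 genes. The DDX23-/- over POLK-/- ratio had a median of 1.28 over 11 genes, beside 1.43 over 2296. The ratios compare single lists, each against its own background, whose error was not estimated.

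**Figure D3:**
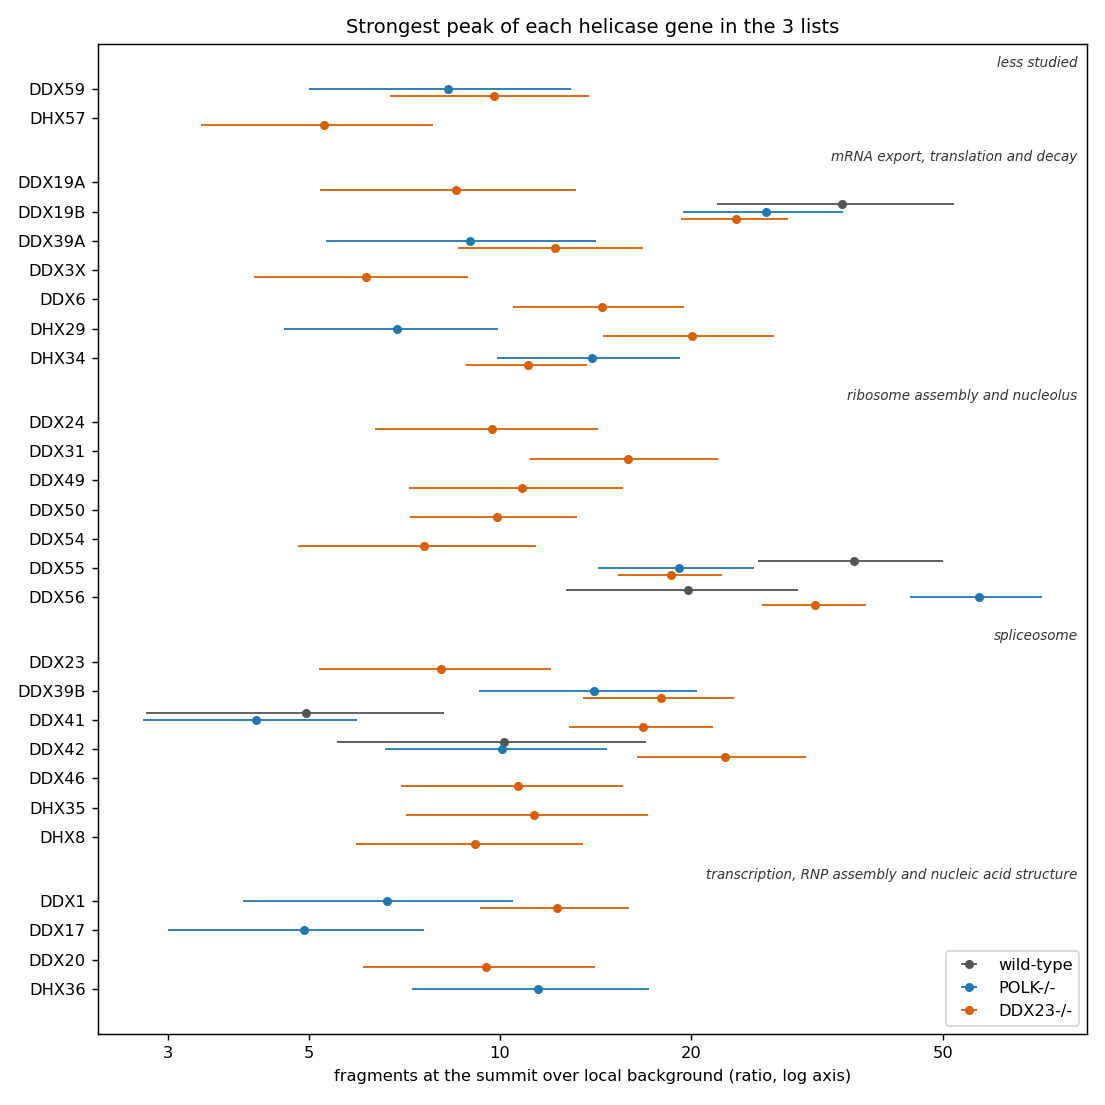
Fragments at the summit over local background (x axis, log scale) at the strongest peak of each helicase gene (y axis), with 1 colour per list and bars for the exact Poisson 95% interval of the fragment count. DDX56 in the POLK-/- list is highest at 56.8. DDX41 is at 16.8 in the DDX23-/- list and at 4.95 and 4.12 in the others, each over its own local background, whose error the bars leave out.

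Among the genes shared by the POLK-/- and DDX23-/- lists, DHX29 and DHX34 sat closest to their starts. DHX29, which helps ribosomes scan structured leaders, had 28 and 43 fragments, or 6.87 (4.57 to 9.93) and 20.1 (14.5 to 27.1) times background, with summits at 3 and −9 bp from the start. DHX34, a factor of nonsense-mediated decay, had 38 and 84 fragments, or 14.0 (9.90 to 19.2) and 11.1 (8.84 to 13.7) times background, at 4 and 28 bp. The counting intervals of DHX29 did not overlap and those of DHX34 did. At DHX29 the local background was 4.07 and 2.14 fragments, and its error is not in these intervals. DDX39B, the export and splicing helicase also known as UAP56, was at 14.1 and 18.0 times background, and its relative DDX39A at 8.97 and 12.2. DDX1, part of the tRNA ligase complex, was at 6.63 and 12.3, and DDX59 at 8.29 and 9.79.

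In the POLK-/- list alone, DDX17, a coregulator of transcription and RNA processing, was at 4.91 times background with 20 fragments. DHX36, which unwinds G-quadruplexes, was at 11.5 with 23 fragments. In the DDX23-/- list alone, DDX6, a decay factor of P-bodies, had 43 fragments at 14.5 times background, and DDX50 had 45 at 9.89. DHX57 was the weakest of the 14 by p, with 24 fragments at 5.28 times background. DDX3X, a translation factor, and DDX31 each had 2 separate peaks there.

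The 27 genes with no peak in any list include some of the best known helicases. They were DDX5, DHX9, DDX21, DHX15, DHX16, DHX38, DDX10, DDX18, DDX27, DDX47, DDX51, DDX52, DHX33, DHX37, DDX28, DHX30, DDX3Y, DDX4, DDX25, DDX43, DDX53, DDX60, DDX60L, DHX58, DDX11, DHX32 and DHX40. DHX15, DHX16 and DHX38 are the spliceosome members of this set, and act in catalytic activation (DHX16), the second step (DHX38) and disassembly (DHX15). DDX4, DDX25, DDX43 and DDX53 are genes of the germ line, and DHX58, DDX60 and DDX60L are antiviral.

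Most summits lay near a start, and more of them near the canonical start than near the 5′ end of the gene record. Over 45 pairs of a peak and a helicase gene, 32 summits were within 100 bp of the canonical start and 20 within 100 bp of the record's 5′ end. For 9 genes the canonical start lay 418 to 1349 bp downstream of the record's 5′ end, and of their 17 pairs 12 were within 100 bp of the former and 1 of the latter. DDX19B, with an offset of 9523 bp, is not among these 9 and went the other way, its 3 summits lying near the record's 5′ end and far from the canonical start. No helicase peak was more than 1 kb from both, whereas 11.0%, 10.1% and 10.3% of pairs over all genes were in the lists of wild-type, POLK-/- and DDX23-/- cells. Within 100 bp of the canonical start were 80.0%, 76.9% and 66.7% of helicase pairs, beside 46.6%, 45.4% and 46.7% over all genes. Relative to the canonical transcript, 24 summits were upstream, 15 in the 5′ UTR, 4 in a coding exon and 2 in an intron.

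**Figure D4:**
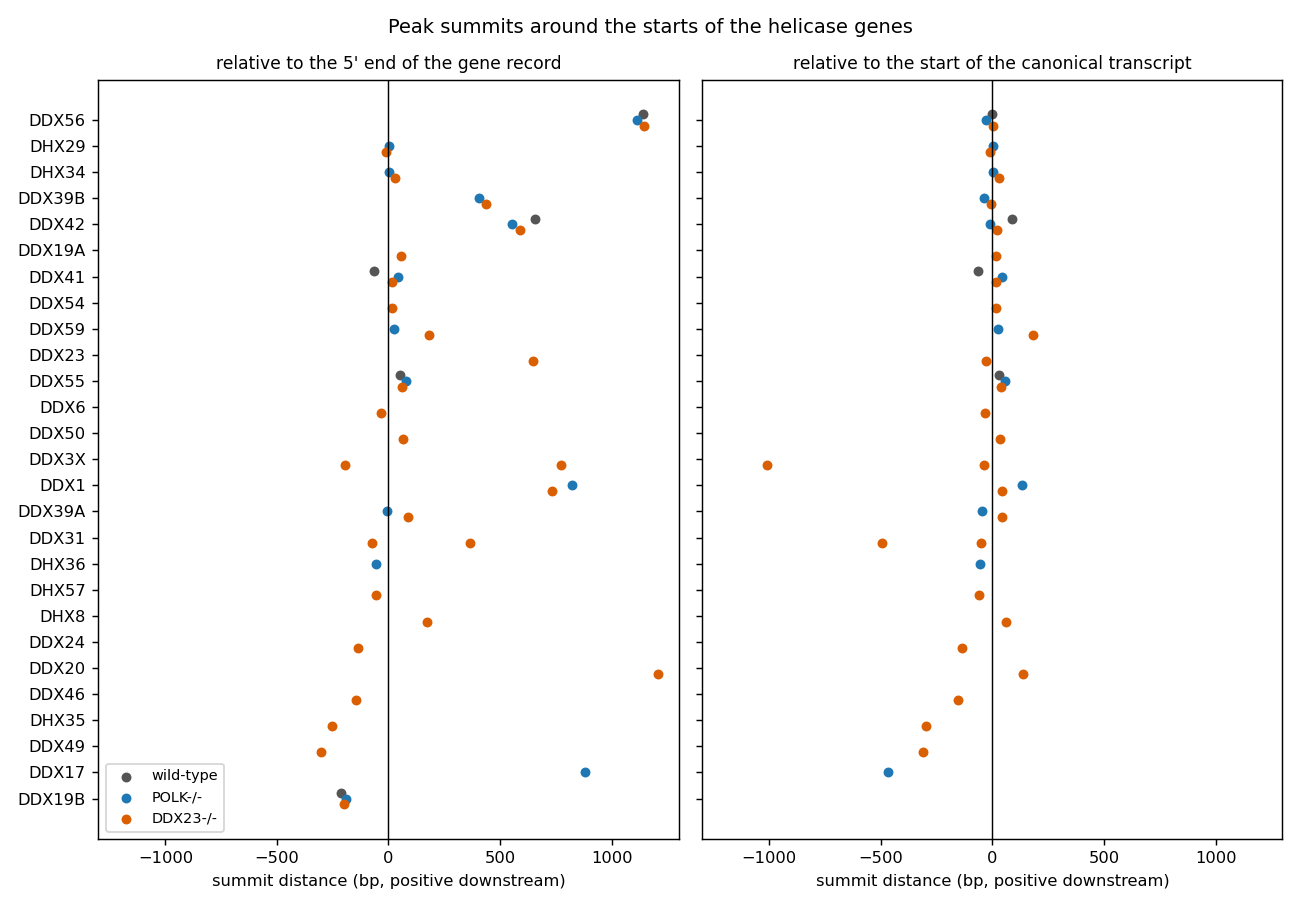
Distance of each helicase peak summit from the gene's start in bp (x axis, positive downstream), from the record's 5′ end and from the canonical transcript start, with 1 colour per list and the DDX19B canonical distances of −9736 to −9712 bp beyond the axis. Points gather near 0 for the canonical start, where 32 of 45 are within 100 bp against 20 for the record.

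Some of these promoters serve another gene as well. A second protein-coding start lay within 1 kb for 13 of the 54 genes (24.1%), against 17.5% of all genes. The summit was nearer the other gene's start for 4 genes, DDX24 beside IFI27L1, DDX31 beside GTF3C4, DDX49 beside COPE and DHX57 beside MORN2. Another start also lay within 1 kb of the summit for DDX19B beside AARS1, DDX20 beside INKA2, DDX54 beside RITA1 and DHX29 beside MTREX. For these 8 genes, with 12 of the 45 pairs, the peak cannot be assigned to one gene of the pair. Without the 13 genes, 4, 11 and 17 of 41 had a peak, or 9.76%, 26.8% and 41.5%, against 5.79%, 9.91% and 25.0% of all genes. None of the 45 peaks had a copy of at least 50 bp and 95% identity elsewhere in the genome.

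Start peaks of the helicase genes were of ordinary strength. The median deposited fold was 10.4, 6.35 and 7.67 in the lists of wild-type, POLK-/- and DDX23-/- cells over 4, 12 and 23 genes, beside 7.23, 6.94 and 7.38 over all genes. In the DDX23-/- list they were wider, with a median of 485 bp beside 350.

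The ETS motif was the motif most over the general level. In the start windows, CCGGAAG was found in 22 of 54 helicase genes (40.7%), beside 14.0% of all genes. It was in 14 of the 27 with a peak (51.9%), beside 22.4% of all genes with a peak, and in 8 of the 27 without (29.6%). The 14 include DDX19B, whose start window lies away from its peaks and whose summit windows held no ETS match. CpG-rich windows made up 96.3% of the 27 with a peak, beside 89.1% of all genes with a peak, and the motif shares were not matched for this. Over all 54, CCAAT was in 48.1% beside 35.9%, AAGATGG in 14.8% beside 6.44% and GCATGCG in 9.26% beside 5.10%. GGGCGG was in 55.6% beside 61.0% and TATAA in 7.41% beside 16.7%. In 300 bases around the summits, the ETS motif was in 1 of 5, 7 of 13 and 14 of 27 helicase peaks from wild-type, POLK-/- and DDX23-/- cells. These are 20.0%, 53.8% and 51.9%, beside 19.3%, 21.2% and 21.2% of start peaks of all genes. The 5 wild-type genes were in the other lists too, and the DDX42 window held the motif there but not in the wild-type list, where its summit lay elsewhere. A match describes the letters only. DDX49 and DDX50 above carry it within the printed stretch, while DDX55, with strong peaks in every list, had none of the 6 motifs in any of its 3 summit windows.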

How the data were processed

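Peak lists of 3 ChIP-seq libraries of HEK293T cells, 1 for each genotype, were used as deposited, out of 16 samples. The submitters' processing notes name Bowtie2, MACS2, bedtools, deepTools and hg19, with versions not given in the sources used here, nor the control, the threshold or any pooling. The names inside the lists carry other library numbers than the samples they were deposited under, so which library of a genotype each came from is uncertain. The deposited values are a score, a fold over local background as a ratio, and the −log10 p-value and −log10 q-value of each peak, all made by the authors' peak caller. The study describes tagged polymerase κ cells, and these libraries only in the labels.

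Fragments at each summit were recovered from the deposited fold and p, and this step and the gene assignment were tested on simulated data. Peaks were assigned by summit to GENCODE 44 genes on GRCh37, with Python 3.11.15, numpy 2.4.6, pandas 2.3.3, scipy 1.17.1 and blastn 2.17.0. None of the 9864 peaks ran past a chromosome end, and 13 on other contigs were left out. Intervals are 95% exact binomial or Poisson and cover counting error only, which for the Poisson intervals is that of the summit fragments and not of the background. Alternatives were the start used, the window, overlap by any base, q, equal list lengths, a common p and shared starts. Genes were named by rule: all with a peak, with full values for DDX23, genes in all 3 lists and the 3 smallest p per list. The genes, role groups and motifs were chosen with earlier results of these data known.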

Additional observations from a re-analysis of the deposited data

How the results depend on the processing

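Of 99 alternative values for 13 results, 91 stayed within the spread set for them and 8 moved. The spread was a fixed factor for counts and an interval of the ranked values for medians. With few genes that interval is wide, and reversals were not looked for. With equal numbers of peaks, the helicase genes with a peak numbered 9 in place of 25 in the DDX23-/- list and 7 in place of 13 in the POLK-/- list, and those with a start peak 8 in place of 23 and 6 in place of 12. The median fold of start peaks in the DDX23-/- list was then 12.3 in place of 7.67. The median distance of summits from the start in that list was 146 bp from the gene record, 26 bp from any transcript and 39 bp from the canonical transcript, and in the wild-type list 139 bp and 48 bp from the record and the canonical transcript. The canonical start was added after the data were seen. No paired analysis was possible because each genotype had 1 list, although the labels number its libraries alike. With 1 list per genotype, genotype, depth and library cannot be told apart.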

Other observations

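RNA helicases of related families under other names were counted in the same way. Of 24 such genes, 2, 5 and 10 had a peak in the lists of wild-type, POLK-/- and DDX23-/- cells, or 8.33%, 20.8% and 41.7%, beside 6.98%, 12.1% and 29.5% of all genes. DICER1, which cuts microRNA precursors, was in all 3 lists, with 15, 31 and 37 fragments. ASCC3, a helicase of DNA repair and of stalled ribosomes, was at 24.4 and 27.7 times background in the POLK-/- and DDX23-/- lists. EIF4A3, of the exon junction complex, was at 11.2 and 12.7 in the same lists. MTREX, of the nuclear exosome, shared its peak with DHX29. HELZ2 was found in the wild-type list alone, with 13 fragments. SNRNP200, the U5 partner of DDX23, had a peak 15758 bp from the 5′ end of its gene record. For these related genes the distance from the canonical start was not measured, so this peak may still lie at a start.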
